A study of Homo sapiens with 4 samples.

Results

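CCL20 and 6 further chemokines (CCL2, CCL5, CCL7, CCL8, CCL28 and CX3CL1) were examined in BEAS-2B, an immortal epithelial line from human bronchus. The 7 symbols were taken by name from the 24424 gene symbols listed in each count file. Each of the 4 conditions had 1 library. Control cells were left untreated, LPS cells received lipopolysaccharide, a component of the gram-negative outer membrane, for 2 hr, and the other cells received either the WT PDZ or the mut PDZ peptide for 24 hr before the same 2 hr of LPS. Cells of every condition were of wild-type genotype. The WT PDZ peptide was derived from the first PDZ domain of the tight junction protein ZO-1 with a Tat stretch for entry into cells, and in mut PDZ a pair of glycines was replaced by alanines. The libraries are called Control, LPS, WT PDZ and mut PDZ, the last pair both with LPS and marked +LPS in the plots. No library with a peptide but without LPS was analysed, so the effect of a peptide on resting cells was not measured, and the doses given to these cells are not given in the sources used here.

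Chemokines are small secreted proteins that guide leukocytes along concentration gradients and are sorted by the spacing of their first cysteines, which are adjacent in CC chemokines and separated by other residues in CX3CL1. Airway epithelium uses them to call immune cells to the mucosa. CCL20 binds CCR6 on dendritic cells, Th17 cells and B cells. CCL2, CCL7 and CCL8 are monocyte attractants that act through CCR2 and related receptors, CCL5 attracts T cells and eosinophils, CCL28 is a mucosal chemokine that binds CCR10 and CCR3, and CX3CL1 is made as a membrane-bound protein and released by proteases.

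Library totals were 24823347 counts for Control, 25155647 for LPS, 23446600 for WT PDZ and 19682929 for mut PDZ. Counts were divided by geometric size factors, which gives normalized counts. As there was 1 library per condition, no difference had a replicate check and no p-value was computed. The intervals given are exact at 95% and cover counting error between libraries only. A gene was called different where its levels were 2-fold or more apart and one of the libraries compared reached 16 normalized counts, and a chemokine that reached 16 in no library was taken as too low to measure. Values of the mut PDZ library moved with transcript length. Across 12144 genes, Spearman's rho between transcript length and log2 fold change was -0.605 in mut PDZ against LPS and 0.0742 in WT PDZ against LPS. For this reason log2 values of mut PDZ are also given after a correction for the length and GC content of the transcript. The exception is values against Control for chemokines with 0 counts there. All 6 epithelial markers on the list used (KRT5, KRT8, KRT18, KRT19, CDH1 and EPCAM) reached 16 normalized counts. Of 8 leukocyte markers, PTPRC and MS4A1 were at 0 in every library and 2, CD14 and CD68, reached 16 normalized counts. The leukocyte list summed to between 732 and 899 normalized counts per library, nearly all from CD14 and CD68, and CD14 is also on the TLR4 list used further on. In such bulk RNA, fewer cells that make a chemokine and less RNA per cell cannot be told apart.

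Stretches of promoter sequence are shown for CCL20, which had the highest level of the 7 chemokines under LPS, and for CCL7 and CCL8. The latter were both at 0 counts in Control. Each is the 100 bases before the annotated start, 5′ to 3′ on the strand of the gene, from RefSeq on GRCh38.p14. The study mapped its reads to hg19, and these coordinates are used only for the sequences. Capitals mark a match to the NF-kB consensus motif in CCL20, to TATAAA in all of the genes shown, and to the AP-1 motif TGANTCA in CCL7.

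CCL20 (chr2:227813742-227813841, + strand): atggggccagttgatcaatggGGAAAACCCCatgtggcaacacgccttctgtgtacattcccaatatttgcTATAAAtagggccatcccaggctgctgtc

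CCL7 (chr17:34270121-34270220, + strand): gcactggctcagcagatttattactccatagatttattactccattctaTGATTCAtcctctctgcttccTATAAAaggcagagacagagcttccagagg

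CCL8 (chr17:34319335-34319434, + strand): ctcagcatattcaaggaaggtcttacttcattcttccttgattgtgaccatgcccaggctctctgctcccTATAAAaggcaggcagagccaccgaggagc

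Windows from 250 bases before to 50 bases after the start were searched on both strands. They were used for 4 of the 7 chemokines, CCL20, CCL7, CCL8 and CCL28, the last with a second start, and none was used for CCL2, CCL5 or CX3CL1. The NF-kB match of CCL20 lay on the opposite strand from -79 to -70, and it was the only one among these 5 windows, while 11.3% of 35116 windows held one. TATAAA was found in 3 of the 5 windows and in 11.5% of all windows, at -29 in CCL20 and at -30 in CCL7 and CCL8. The AP-1 match of CCL7 lay from -51 to -45, and 7.71% of all windows had such a match. The interferon-stimulated response element motif (ISRE) was found in 0 of the 5 windows and in 3.57% of all windows. These matches describe letters in the windows and are not measured binding sites.

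CCL20 was the chemokine with the highest count under LPS. It had 51 counts in Control, 15652 with LPS, 11317 with WT PDZ and 16154 with mut PDZ, or 44.4, 14723.5, 11428 and 18981 normalized counts. The untreated library was far below all 3 LPS-treated libraries, among which WT PDZ was lowest and mut PDZ highest before the length and GC correction. After it the log2 value against Control was 8.42 for LPS, 8.03 for WT PDZ and 8.31 for mut PDZ, so that LPS was highest. In LPS against Control it was 332-fold higher (95% counting interval, 252 to 446), and on the log2 scale with 1 count added it was first among the 13277 genes that could be called. On that scale it was also first in mut PDZ against Control, at 428-fold (325 to 575), and second in WT PDZ against Control, at 257-fold (196 to 346). These ranks depend on the added count, since by the ratio alone MMP3, with 1 count in Control, was higher in all of these comparisons. On a scale of reads scaled to transcript length and library total (RPKM), CCL20 went from rank 9706 of 19133 genes in Control, at 2.45, to rank 56 in LPS, at 742.

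**Figure D1:**
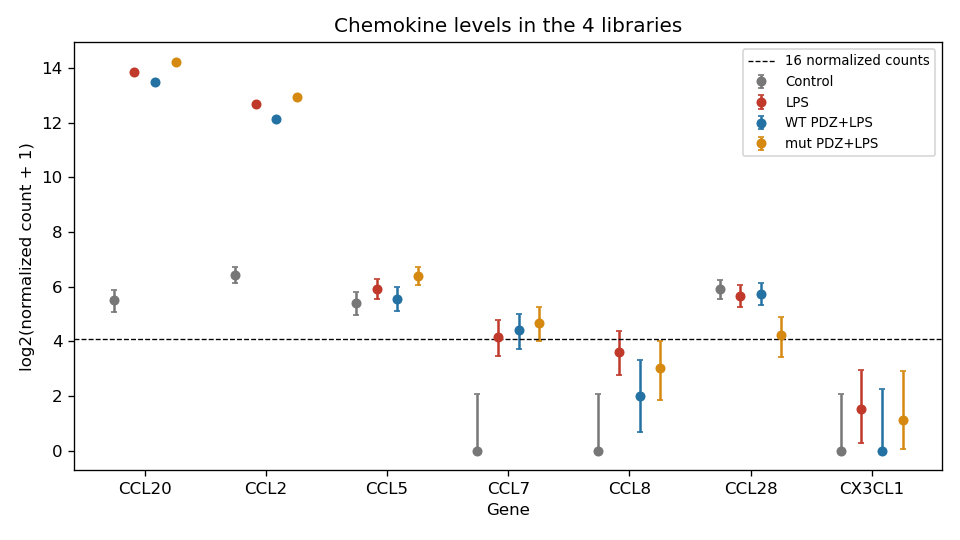
Levels of the 7 chemokines in the 4 libraries, as log2(normalized count + 1), with exact 95% Poisson intervals for counting error. CCL20 and CCL2 stand far above their Control level in all 3 LPS-treated libraries, CCL7 is at 0 in Control and close to the dashed line at 16 normalized counts in the others, and CCL8 and CX3CL1 are below it in every library.

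Among the monocyte attractants, CCL2 was the abundant member. It had 99 counts in Control, 7096 with LPS, 4426 with WT PDZ and 6720 with mut PDZ, or 86.2, 6675, 4469 and 7896 normalized counts. The order of the libraries was the same as for CCL20, and it also turned with the correction, to log2 values against Control of 6.34 for LPS, 5.74 for WT PDZ and 6.12 for mut PDZ. CCL2 was 77.5-fold higher in LPS against Control (63.5 to 95.5), the 12th highest on the log2 scale with 1 count added, 51.9-fold in WT PDZ against Control and 91.6-fold (75.2 to 113) in mut PDZ against Control. Per length, CCL2 was at 5.38 RPKM in Control, above CCL20, and at 381 in LPS, below it.

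CCL7 is encoded next to CCL2 on chromosome 17 and had far fewer reads. It had 0 counts in Control, 18 with LPS, 20 with WT PDZ and 21 with mut PDZ. The 3 LPS-treated libraries lay between 16.9 and 24.7 normalized counts, and their counting intervals overlapped. With the 0 of the Control library taken as 3 counts, CCL7 was at least 6.49-fold higher in LPS, at least 7.74-fold in WT PDZ and at least 9.45-fold in mut PDZ. These bounds take the 18 to 21 counts as exact, and the counting intervals of the ratios reached down to 4.75, 5.73 and 7.03.

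CCL8 was too low to measure, with 0 counts in Control, 12 with LPS, 3 with WT PDZ and 6 with mut PDZ. With Control taken as 3 counts it was at least 4.32-fold higher in LPS than in Control, and the counting interval of the log2 ratio reached down to 1.59. Its ratio of WT PDZ to LPS was 0.268, with a counting interval from 0.0486 to 0.994 that came close to no difference, and the ratio of mut PDZ to LPS was 0.625 (0.192 to 1.80), not detectable at this depth.

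In RefSeq's order of genes on chromosome 17, CCL2, CCL7, CCL11, CCL8 and CCL13 follow each other. CCL11 and CCL13, which act on eosinophils among other cells, were at 0 counts in all 4 libraries, which allows up to 3 counts in each. Reads on this group of neighbours were found on CCL2, CCL7 and CCL8, and CCL2 held nearly all of them.

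CCL5, a T cell attractant also on chromosome 17, had 47 counts in Control, 64 with LPS, 46 with WT PDZ and 71 with mut PDZ. In normalized counts Control was lowest at 40.9, WT PDZ close to it at 46.5, LPS at 60.2 and mut PDZ highest at 83.4. In RefSeq's annotation CCL5 overlaps LOC105371745, which is not among the symbols counted, and the strand setting of the counting is not known. Its log2 fold change in LPS against Control was 0.55, with an interval from -0.0082 to 1.13, so a difference was not detectable at this depth. The interval leaves room for a fold of up to 2.19. In mut PDZ against Control CCL5 was 2.04-fold higher (1.39 to 3.01), just past the 2-fold limit, and its log2 value of 1.01 became 0.77 after the correction for length and GC content.

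CCL28, a chemokine of mucosal epithelia, had 68 counts in Control, 53 with LPS, 52 with WT PDZ and 15 with mut PDZ. Only the mut PDZ library stood apart, and the other 3 overlapped within their counting intervals. Its log2 fold change was -0.24 (-0.79 to 0.29) in LPS against Control, not detectable at this depth, and -1.69 (-2.66 to -0.93) in mut PDZ against Control, or -1.59 after the correction.

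CX3CL1, the CX3C chemokine, was too low to measure in any condition, with 0 counts in Control, 2 with LPS, 0 with WT PDZ and 1 with mut PDZ. No fold is given, since no library was above 3 counts. On chromosome 16 it lies between CCL22, with 3, 1, 0 and 0 counts in the same order, and CCL17, with 0, 0, 0 and 1.

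In all, 3 of the 7 chemokines (CCL20, CCL2 and CCL7) were called higher in LPS against Control, beside 3.46% of the 13277 genes that passed the level of 16 normalized counts. The same 3 were called higher in WT PDZ against Control, where 3.28% of genes were. In mut PDZ against Control CCL5 was added, which made 4, beside 5.13% of genes (3 without CCL5 under TMM or total-count scaling or after the correction), and 1, CCL28, was called lower, beside 2.96%. These comparisons share the Control library. Of the 7 chemokines, 5 passed the level in these comparisons. CCL7 passed it only through the LPS-treated libraries, and with 0 counts in Control it was then certain to be called higher. The chemokines together took 0.00107% of all counts in Control, 0.0910% with LPS, 0.0677% with WT PDZ and 0.117% with mut PDZ, and CCL20 and CCL2 made up at least 99.2% of that in each LPS-treated library.

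The comparison of WT PDZ with LPS sets cells given the peptide and LPS beside cells given LPS alone. Each had 1 library, and no library had the peptide alone. A changed response to LPS thus cannot be told apart from other differences between these libraries. By the 2-fold rule, 0 of the 7 chemokines differed, where 1.37% of 13236 genes did. CCL20 and CCL2 were at a lower normalized count with WT PDZ than with LPS alone, beyond counting error. The log2 fold change was -0.37 for CCL20 (-0.40 to -0.33), or 0.776 of the LPS level, and -0.58 for CCL2 (-0.63 to -0.52), or 0.670 of it. These levels were 257-fold and 51.9-fold above Control.

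How far these values stood from those of other abundant genes was examined with a limit set after the values were seen. Without such a limit, CCL2 had the 298th lowest log2 fold change in WT PDZ against LPS and CCL20 the 636th lowest, of the 13236 genes that could be called. Of the 5326 genes whose mean reached 1000 normalized counts, CCL2 had the lowest value and CCL20 the 15th lowest. The middle 50% of these genes lay between -0.046 and 0.057. With a limit of 2000 or 4000 CCL2 was again the lowest, of 2885 and 1216 genes, and with a limit of 500 the value was lower in RPL21, a ribosomal protein gene with many near-identical copies, and in IFIT3, so that CCL2 was in place 3 of 7673. The spread between cultures of one condition is unknown here, so these ranks describe a pair of libraries and not the peptide.

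**Figure D2:**
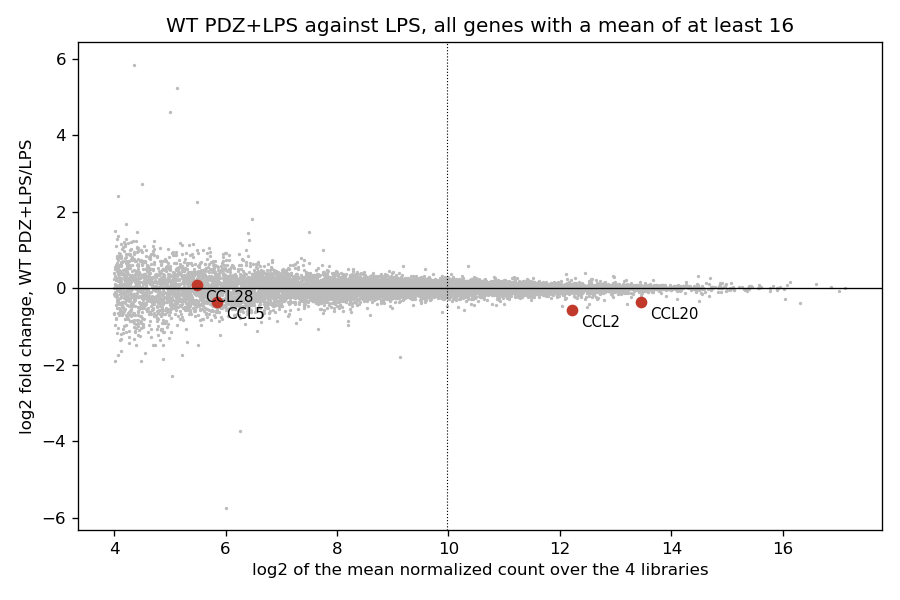
Log2 fold change of WT PDZ against LPS against the log2 of the mean normalized count over the 4 libraries, for the 13072 genes whose mean reached 16, with CCL20, CCL2, CCL5 and CCL28 in red and a dotted line at 1000. Gray points narrow around 0 with rising level, and CCL2 and CCL20 lie below the band at -0.58 and -0.37, while CCL5 and CCL28 lie within the wide spread of low counts.

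Genes higher in mut PDZ than in Control were also lower as a group in the WT PDZ library than in the LPS library. To keep the LPS and WT PDZ libraries out of the choice, genes at least 4-fold higher in mut PDZ against Control were taken. The choice thus carries the mut PDZ peptide as well as LPS, and a trend with transcript length (rho -0.453 in mut PDZ against Control). Of the 214 genes, 150 had a value below 0 in WT PDZ against LPS and the median was -0.15, against 0.0076 over all genes that could be called. Among the 69 of them whose mean reached 1000 normalized counts, 61 were below 0 and the median was again -0.15. Of all 5326 genes at that level, 2443 were below 0. CCL2 was the lowest of the 69 and CCL20 the 8th lowest. Among all 214, which include genes with few counts, CCL2 was in place 33 and CCL20 in place 57 from the lowest. The limit of 1000 used the mean over all 4 libraries. As each condition had 1 library, these values describe a pair of libraries and not the peptide.

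For CCL5, CCL7 and CCL28, WT PDZ and LPS could not be told apart at this depth. The log2 fold change was -0.37 for CCL5 (-0.95 to 0.19), 0.24 for CCL7 (-0.74 to 1.26) and 0.073 for CCL28 (-0.51 to 0.65). The intervals of CCL5 and CCL7 include the values of both CCL20 and CCL2, while that of CCL28 includes the value of CCL20 and not that of CCL2.

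Against LPS, mut PDZ gave higher values for CCL20 and CCL2 before the correction for transcript length. The log2 fold change was 0.37 for CCL20 (0.33 to 0.40) and 0.24 for CCL2 (0.19 to 0.29). Their transcripts are short, 839 and 741 nt, and 390 genes of like length to CCL20, at most 25% longer or shorter by the same ratio, had a median of 0.47 in the same comparison, above the value of CCL20 itself. For CCL2 the median of the 270 genes of like length was 0.49. After the correction the values were -0.092 for CCL20 and -0.19 for CCL2, so the sign turned for both. The part of transcript length in what remained was not tested. In WT PDZ against LPS the correction left them at -0.39 and -0.59.

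CCL28 was the only one of the 7 chemokines past the 2-fold limit in mut PDZ against LPS, beside 3.95% of 13378 genes. It was lower by a log2 value of -1.45 (-2.43 to -0.65), the 76th lowest of all genes that could be called, with 15 counts against 53. Its longest coding transcript measures 3126 nt, the median of 3111 genes of like length was -0.020, and the correction moved its value to -1.37. CCL5 and CCL7 were at 0.46 (-0.037 to 0.98) and 0.52 (-0.44 to 1.54), not detectable at this depth, and at 0.16 and 0.11 after the correction.

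**Figure D3:**
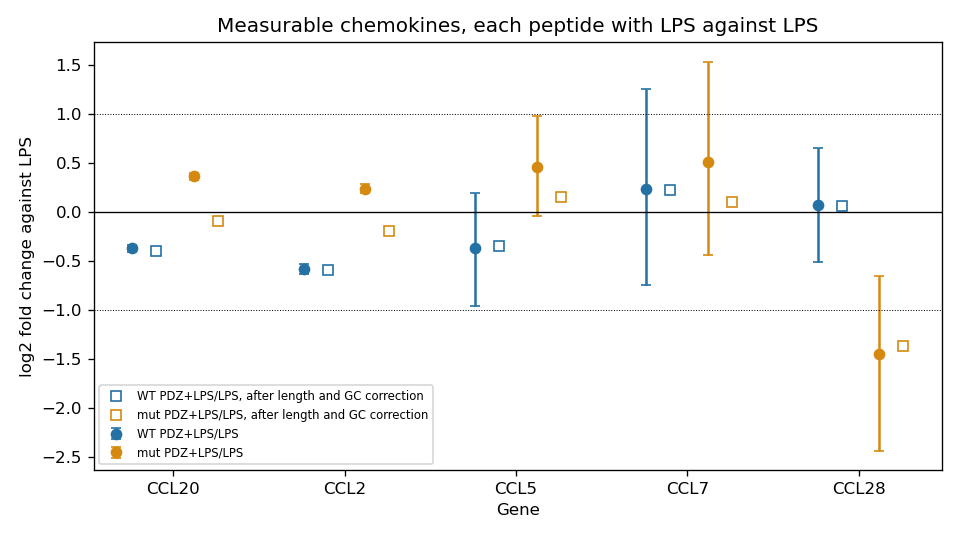
Log2 fold change against LPS of the 5 chemokines with at least 16 normalized counts in a library, for WT PDZ (blue) and mut PDZ (orange). Filled circles with bars are the values with 95% counting intervals, open squares the values after correcting for length and GC, and dotted lines mark 2-fold. For CCL20 and CCL2 the orange circles lie above 0 and the orange squares below it, while blue circles and squares nearly coincide, and CCL28 is past the 2-fold line with mut PDZ alone.

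The peptides differ by the glycine pair, and their libraries were compared directly in mut PDZ against WT PDZ. CCL20 was 1.66-fold higher with mut PDZ (1.62 to 1.70), CCL2 1.77-fold (1.70 to 1.84) and CCL5 1.80-fold (1.22 to 2.66). On the log2 scale these were 0.73, 0.82 and 0.83, and after the correction 0.28, 0.39 and 0.50. CCL7 was at 0.28 (-0.67 to 1.25), or -0.13 after the correction, not detectable at this depth. CCL28 was lower, at -1.52 (-2.51 to -0.72), or -1.43 after the correction, and was the only one of the 7 called, beside 4.26% of 13372 genes. With 1 library of each peptide, the peptide and the library cannot be told apart.

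The balance between CCL2 and CCL20 does not depend on how the libraries were scaled. CCL2 made up 66.0% of the counts of both genes in Control (57.8 to 73.5%), 31.2% in LPS (30.6 to 31.8%), 28.1% in WT PDZ (27.4 to 28.8%) and 29.4% in mut PDZ (28.8 to 30.0%). CCL2 thus led in untreated cells and CCL20 in every LPS-treated library. The interval of LPS did not overlap that of either peptide library, so that CCL2 was lower relative to CCL20 with both peptides, and the intervals of WT PDZ and mut PDZ overlapped. Per length, CCL20 stood at 0.455 times CCL2 in Control, 1.95 times in LPS, 2.26 times in WT PDZ and 2.12 times in mut PDZ.

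**Figure D4:**
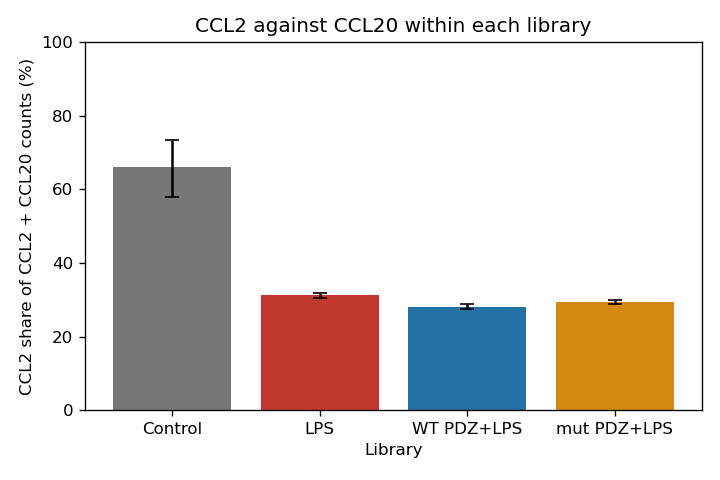
Share of CCL2 in the summed counts of CCL2 and CCL20 in each library, in percent, with exact 95% binomial intervals for counting error. The share is 66.0% in Control and between 28.1 and 31.2% in the 3 LPS-treated libraries.

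The genes whose pattern over the 4 libraries was most like that of a chemokine were found by the root mean square difference of centred log2 values, over genes whose mean reached 16. For CCL20 they were PTX3, a soluble pattern recognition protein, at 0.35, the metalloproteinase MMP3 at 0.39, the growth factor CSF2 at 0.48, LTB at 0.52 and IL1A at 0.53. For CCL2 they were VCAM1, which binds leukocyte integrins, at 0.081, the keratin KRT6B at 0.12 and BCL2A1, a survival factor, at 0.19. VCAM1 was at -0.59 in WT PDZ against LPS, close to CCL2. It was chosen for its likeness over libraries that include this pair, so this closeness follows from the choice. MMP3, CSF2, VCAM1, LTB and BCL2A1 had 1 count or 0 in Control, so their distances depend on the count added before log2. For CCL7, whose own distance to other genes rests on the count added to its 0 in Control, they were the neutrophil attractants CXCL1 at 0.12 and CXCL6 at 0.21, and LIF at 0.21. Low counts and small changes make the likeness weak for CCL5 and CCL28 too, with 8714 genes within 0.5 of CCL5 and 1994 within 0.5 of CCL28. The nearest to CCL5 were CRABP2, ZNF503 and DPP9-AS1, and those nearest to CCL28 were NOMO3, ERCC6-PGBD3 and AMDHD1.

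The other CC and C chemokines and most of the receptors listed were sparse in these cells. CXC chemokines were not on these lists, and CXCL1 had 40741 normalized counts in LPS, above CCL20. Of 24 other CC and C chemokines, 17 were at 0 in every library and all 24 had at most 3 counts in any library. Among 16 receptors, CCR2, the receptor of CCL2, and CX3CR1, the receptor of CX3CL1, were at 0 throughout. CCR6, the receptor of CCL20, had 8 counts in Control, 6 with LPS, 2 with WT PDZ and 3 with mut PDZ. CCR10, the receptor of CCL28, had 7, 3, 8 and 16 in that order and reached the level of 16 normalized counts only in mut PDZ. Through that library it was called higher against Control (beside 689 of 13434 genes), LPS (274 of 13378) and WT PDZ (284 of 13372). These calls rest on few counts, and no counting interval was computed for them. After the correction CCR10 was at 1.86 in mut PDZ against LPS and at 0.62 in mut PDZ against WT PDZ, the latter below 2-fold. ACKR1, a decoy receptor that takes up CCL2 and CCL5 without signaling, was the only receptor well above the limit, with 1321, 1120, 1019 and 934 counts, and its log2 fold change was -0.13 in LPS against Control. CADM3, its neighbour on chromosome 1, had between 4670 and 7406 counts.

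Of 4 proteases that trim or release chemokines, 1 was called higher in LPS against Control, where 3.46% of all genes were. CTSS, a cathepsin, had 22 counts in Control, 79 with LPS, 81 with WT PDZ and 67 with mut PDZ. ADAM10 and ADAM17, which release CX3CL1 from the membrane, had 4417 and 2413 counts in LPS although CX3CL1 itself had 2.

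Upstream of these chemokines, 15 genes of the TLR4 route were listed. Of the 14 that could be called, 2 were higher in LPS against Control, NFKB1 and NFKBIZ, and 0 lower, beside 460 higher and 187 lower of 13277 genes in all. TLR4 had 1818, 1705, 1664 and 999 counts in Control, LPS, WT PDZ and mut PDZ, whereas LY96, which encodes the TLR4 partner MD-2, had 1 count in Control and 0 in the others. The log2 value of TLR4 in mut PDZ against LPS was -0.45, and 0.15 after the correction, so its sign turned. The median of the 14 genes that passed the level was 0.018 in LPS against Control and 0.0017 in WT PDZ against LPS, against -0.0023 and 0.0076 over all genes. CHUK, a kinase that acts on the inhibitor of NF-kB, was the only gene of this list called in mut PDZ against WT PDZ, at -1.09. In that comparison 4.26% of 13372 genes were called. After the correction CHUK was at -0.93, below 2-fold. Of 15 genes of the interferon route 13 could be called, and 5 were higher in LPS against Control (TICAM1, TICAM2, IKBKE, IRF1 and CXCL10) and 0 lower, against the same 3.46% of all genes higher. TICAM2, with 0 counts in Control, and CXCL10, with 3, passed the level only through the LPS library. Both were then certain to be called higher. IFNB1 had 1 count in LPS and 0 elsewhere. IRF1, an interferon regulatory factor, had 1228 counts in Control, 13985 with LPS, 9799 with WT PDZ and 11551 with mut PDZ, and was at -0.41 on the log2 scale in WT PDZ against LPS. In mut PDZ against LPS, after scaling for the smaller library, IRF1 was at 0.045, or 0.14 after the correction. CXCL10 was the only gene of the pathway, receptor and protease lists called in WT PDZ against LPS, with 39 counts in LPS and 16 in WT PDZ. In that comparison 1.37% of 13236 genes were called.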

How the data were processed

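RNA of BEAS-2B cells was made into directional poly(A)-selected libraries and sequenced as read pairs. The authors removed adapter and low-quality reads, mapped the rest with TopHat to hg19 (submitters' processing notes) and deposited raw counts for each gene symbol. The counting tool, annotation and strand setting are not given in the sources used here. The sources used here name no molecular identifiers, so PCR copies may be counted and intervals cover counting error only.

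Libraries were scaled by the geometric median of ratios, with factors of 1.15 (Control), 1.06 (LPS), 0.990 (WT PDZ) and 0.851 (mut PDZ), and 1 normalized count was added before log2. No test was run, as each condition had 1 library. Intervals are exact binomial (2 libraries or a share) or exact Poisson (a level), at 95%. Folds are ratios of normalized counts without the added count. A count of 0 was taken as 3 counts for a bound. The length correction subtracted lowess trends (span 0.3) over length and then GC content of the longest coding transcript in GENCODE 29, found for 12144 of the 13072 genes whose mean reached 16 normalized counts, by symbol or RefSeq synonym.

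All 7 chemokines were named. From the other lists (chemokines, receptors, proteases, TLR4 and interferon routes) genes with at least 16 normalized counts could be named, and a few below that, among them CCR6, LY96 and IFNB1, were named after their low counts were seen. The 5 genes most like CCL20 and 3 most like each other measurable chemokine were named. The chemokines and lists were chosen with earlier results of these data known, and the limits of 500 to 4000 normalized counts after the values were seen. Alternatives were TMM (edgeR 4.0.16, R 4.3.3), upper-quartile and total-count scaling, an added count of 5, folds of 1.5 and 3, no level rule or 6 on the log2 scale, the length correction and, added later, size factors from genes with at least 100 counts. Steps were tested on simulated data. The software was Python 3.11.15 with matplotlib 3.10.9, statsmodels 0.14.6, scipy 1.17.1, pandas 2.3.3 and numpy 2.4.6.

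Of the marker lists, 0 of 3 endothelial genes (PECAM1, VWF and CDH5) and 1 of 4 fibroblast genes (COL1A1, the others being COL1A2, PDGFRA and DCN) reached 16 normalized counts. Of the epithelial markers, KRT19 was called lower in WT PDZ against Control, beside 189 of 13284 genes, and no other marker was called in any comparison. KRT19 was at -0.91 on the log2 scale in WT PDZ against LPS, short of the 2-fold limit.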

Additional observations from a re-analysis of the deposited data

Results flagged for a closer look

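CCL20 and CCL2 lay on opposite sides of the LPS library with the 2 peptides, beyond counting error. CCL20 was at -0.37 in WT PDZ against LPS and 0.37 in mut PDZ against LPS, with a log2 difference of 0.73 in mut PDZ against WT PDZ. CCL2 was at -0.58 and 0.24, with a difference of 0.82. The difference was not tested against replicates, because each peptide had 1 library. After correcting for length and GC the values of both genes in mut PDZ against LPS were below 0, and the differences were 0.28 and 0.39. In mut PDZ against WT PDZ, genes of like length to CCL20 (at most 25% longer or shorter by the same ratio) had a median of 0.48, and those of like length to CCL2 a median of 0.51. The part of transcript length in the remaining difference was not tested.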

How the results depend on the processing

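Of 108 counts of called chemokines under the alternatives, 99 were within 1.5 times the main count, and of 114 log2 values, 103 moved by less than their counting error. In LPS against Control CCL20 ran from 8.21 to 8.42 and CCL2 from 6.13 to 6.34 over the alternatives, and in WT PDZ against LPS they ran from -0.39 to -0.37 and from -0.59 to -0.58. Total-count scaling put the all-gene median of LPS against Control at -0.13. Without the level rule, 5 chemokines in place of 3 were called higher in LPS against Control and 2 in place of 0 lower in WT PDZ against LPS, in both cases by adding CCL8 and CX3CL1, and 1 (CX3CL1, with 1 count against 0) was called higher in mut PDZ against WT PDZ. A fold of 1.5 called 3 chemokines higher in mut PDZ against WT PDZ. A fold of 3, or a level of 6 on the log2 scale, left 0 called lower in mut PDZ against LPS and in mut PDZ against WT PDZ, where CCL28 had been, and the level of 6 left 0 in mut PDZ against Control. That level also ended the call of CCL7, with 2 in place of 3 called higher in LPS and in WT PDZ against Control and 3 in place of 4 in mut PDZ against Control. The call of CCL5 in mut PDZ against Control was lost with TMM, total-count scaling, a fold of 3 and the length and GC correction, which left 3. For CCL20, the log2 value in mut PDZ against LPS was 0.40 with total-count scaling, 0.43 with the upper quartile, 0.40 with size factors from genes with at least 100 counts (added after the data were seen) and -0.092 after the length and GC correction. In mut PDZ against WT PDZ it was 0.80 with the upper quartile, 0.77 with the added size factors and 0.28 after the correction. For CCL2, mut PDZ against LPS was 0.31 with the upper quartile and -0.19 after the correction, and mut PDZ against WT PDZ was 0.89 and 0.39. The counts of CCL7, CCL8, CCL28 and CX3CL1 limit what can be said of them, and 1 library per condition limits every comparison. No paired analysis was possible because each condition had 1 library.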

Other observations

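Other abundant genes with the lowest values in WT PDZ against LPS, named after their values were seen, included LPS-responsive genes beside CCL2. Among the 2885 genes whose mean reached 2000 normalized counts, ELF3, an epithelial transcription factor, was second lowest at -0.49, with 280 counts in Control, 9028 with LPS, 6002 with WT PDZ and 7061 with mut PDZ. PLAU, the urokinase plasminogen activator, came next at -0.46, with 1046, 6270, 4239 and 4812 counts in that order. NCOA7 at -0.43 and PI3, the elastase inhibitor elafin, at -0.42 followed, NCOA7 with 9703 counts under LPS and 6723 with WT PDZ, PI3 with 2976 and 2070. ELF3, PLAU, NCOA7 and PI3 all had higher counts in LPS than in Control. With the limit of 1000 used above, ASNS at -0.57 and BGN at -0.50 lay below ELF3. ASNS had 1594 counts in Control and 1647 with LPS, and BGN had 1325 and 1321. The lowest values were thus not confined to genes with a large rise under LPS.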
